A study of Mus musculus with 28 samples.

Results

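The genes described here encode 7 enzymes of cholesterol biosynthesis, *Hmgcs1*, *Idi1*, *Fdft1*, *Sqle*, *Cyp51*, *Msmo1* and *Dhcr7*. They were taken by symbol, and not for any measured value, from count tables that list 29879 features, of which 28758 had a symbol in GENCODE M21. Earlier results of these data were known when they were chosen. RNA-seq was carried out on dorsal striatum, ventral striatum, motor cortex and hypothalamus of mice aged 2 to 3 months that were WT, heterozygous or KO for *Hdc*, which encodes histidine decarboxylase, the enzyme that makes histamine. The 28 libraries comprised 2 WT, 3 heterozygous and 2 KO libraries of the dorsal striatum, 3, 3 and 2 of the ventral striatum, 1, 2 and 2 of the motor cortex, and 3, 3 and 2 of the hypothalamus. Per the study's methods the mice were male and the KO line had been backcrossed to C57Bl/6, and the labels name no treatment. Libraries carry a number from 1 to 8 in their labels, and they are named here by genotype, region and that number. The labels do not say that libraries of a group came from separate animals, so each p-value measures only the spread between these libraries.

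Cholesterol is made from acetyl-CoA by a chain of enzymes. Acetyl units are first joined and reduced to mevalonate, mevalonate is turned into isoprenoid units, these are condensed to squalene, and squalene is closed to lanosterol and trimmed to cholesterol. Plasma cholesterol does not cross the blood-brain barrier, so the brain makes its own, with oligodendrocytes using much of it for myelin and astrocytes and neurons making it as well. Most of the genes are switched on by the transcription factor SREBP-2, encoded by *Srebf2*, which is released from the endoplasmic reticulum with the help of SCAP when sterols run low and is held there by the INSIG proteins when they are plentiful.

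SREBP-2 acts through sterol regulatory elements (SREs), often with a CCAAT box nearby, so the bases upstream of 2 members are shown with these letters marked. RefSeq promoter windows on GRCm38.p6 run from 250 bases before to 50 bases after the transcript start and were held for 5 of the 7 genes (*Hmgcs1*, *Idi1*, *Cyp51*, *Msmo1* and *Dhcr7*). *Sqle* and *Fdft1* had no entry. Capitals mark matches to CACCCCAC, to its looser form TCACNNCA or to CCAAT, searched on both strands, so that ATTGG is CCAAT read from the other strand. The *Cyp51* stretch ends where the first exon of the gene begins in GENCODE M21, short of the RefSeq start, so its CCAAT at -29 is not among the letters shown.
Hmgcs1, chr13:119690101-119690350, plus strand: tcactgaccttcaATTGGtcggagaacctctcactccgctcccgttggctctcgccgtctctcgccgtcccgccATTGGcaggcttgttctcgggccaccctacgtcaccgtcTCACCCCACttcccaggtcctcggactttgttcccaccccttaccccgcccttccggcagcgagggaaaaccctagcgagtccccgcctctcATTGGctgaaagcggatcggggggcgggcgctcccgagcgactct
Cyp51, chr5:4104747-4104947, minus strand: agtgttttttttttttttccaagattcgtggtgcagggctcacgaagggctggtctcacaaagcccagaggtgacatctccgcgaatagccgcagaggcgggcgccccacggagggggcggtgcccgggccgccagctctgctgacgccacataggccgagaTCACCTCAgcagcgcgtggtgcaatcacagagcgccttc

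*Hmgcs1* held the strict core CACCCCAC at -136, counted from the transcript start, overlapped by a looser match at -137. That core was in 2.87% of 32851 promoter windows of the same length and in 1 of the 5 member genes. The looser form was in 13.8% of all windows and in 4 of the 5 genes, with the *Cyp51* match TCACCTCA at -88, the *Msmo1* matches TCACTCCA at -177 and TCACTGCA at -92, and those of *Dhcr7* in 2 of its 3 windows. CCAAT was in 37.4% of all windows and the GC box GGGCGG in 35.7%, and both were in all 5 genes. These shares are per window, and the 5 genes had 7 windows, 3 of them of *Dhcr7*. Counted per window, the strict core was in 1 of the 7, the looser form in 5, CCAAT in 5 and the GC box in 6. A match describes letters in a window and is not a measured site.

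Each library held between 3536802 and 5150280 counts on genes (median 4392301.5), and 14979 genes passed a filter of more than 1 CPM (counts scaled to library size) in at least 2 libraries. CPM values are scaled by TMM factors, which correct for differences in library composition. The *Hdc* count was 0 to 6 in WT libraries outside the hypothalamus and 29 to 51 in the libraries labelled KO, and in the hypothalamus it was 79 to 111 in WT and 54 and 66 in KO. Reads of the targeted gene were therefore more frequent in KO than in WT libraries in 3 regions. A gene-level count does not show from which part of the transcript they came, and genotypes are given as labelled throughout. Region markers were as labelled, with the summed CPM of 7 hypothalamic peptide and regulator genes at 151 to 251 in the hypothalamus and at most 4.31 elsewhere, and that of 6 striatal spiny neuron genes at 5211 to 8003 in the dorsal striatum, 1043 to 2450 in the ventral striatum and at most 165 elsewhere. Some libraries stood apart on markers of neighbouring tissue. The summed CPM of 5 cortical excitatory neuron genes was 329 in KO dorsal striatum 7 and 104 in WT dorsal striatum 2 (median of the region 12.8), and 340 in KO hypothalamus 8 (median 36.9). The summed CPM of 8 choroid plexus genes was 2840 in KO dorsal striatum 8 and 66.1 in heterozygous dorsal striatum 6 (median 13.1), and 82.3 in heterozygous ventral striatum 6 (median 20.9).

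*Idi1*, which encodes the isomerase that interconverts the 5-carbon isoprenoid units, was almost without reads. Its gene (ENSMUSG00000058258, chr13:8885501-8892451, plus strand on GRCm38) drew 0 to 4 counts in each of the 28 libraries. The highest value was 0.774 CPM, in WT hypothalamus 1, and counts of 3 or fewer cannot be told from 0 by counting error. It did not pass the filter and was not tested, which left 6 members. Why so few reads were assigned to it was not tested, and it is left out of every count over members below.

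*Hmgcs1* (ENSMUSG00000093930, chr13:119690379-119708260, plus strand) encodes the cytosolic HMG-CoA synthase, which acts early, on the way to mevalonate. In the dorsal striatum it ran from 110.5 to 177 CPM (median 129.0) and in the ventral striatum from 103 to 129 CPM (median 107). In the motor cortex the 5 libraries had 263 CPM (WT), 251 and 222 CPM (heterozygous) and 214 and 236 CPM (KO), and in the hypothalamus the values ran from 193 to 241 CPM (median 224). Every motor cortex and hypothalamus library lay above every striatal library. Its order of levels was motor cortex, hypothalamus, dorsal striatum and ventral striatum, and the first 2 did not differ beyond their spread. *Hmgcs1* was the most abundant member per length, at 24.4 to 51.6 CPM per kb of exon, while the other 5 tested members had region means of 3.72 to 17.3 CPM per kb.

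*Fdft1* (ENSMUSG00000021273, chr14:63145150-63179578, minus strand) encodes squalene synthase, the first enzyme committed to sterols. It ran from 34.4 to 47.8 CPM (median 38.8) in the dorsal striatum and from 36.1 to 43.7 CPM (median 39.1) in the ventral striatum. In motor cortex it had 65.6 CPM (WT), 65.2 and 61.4 CPM (heterozygous) and 52.2 and 64.0 CPM (KO), and in the hypothalamus 67.4 to 79.1 CPM (median 72.1). No library of the hypothalamus overlapped any other region, and none of the motor cortex overlapped the striatum. In GENCODE M21, 18.3% of its exon bases overlap *Ctsb* on the other strand. Union counting without strand would assign reads there to neither gene, and whether strand was used is not given in the sources used here.

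*Sqle* (ENSMUSG00000022351, chr15:59315077-59331192, plus strand) encodes squalene epoxidase, which oxidises squalene before it is closed to lanosterol. Its values were 26.0 to 32.7 CPM (median 28.3) in the dorsal striatum and 25.1 to 39.2 CPM (median 28.3) in the ventral striatum. The motor cortex libraries had 62.7 CPM (WT), 51.2 and 58.4 CPM (heterozygous) and 46.6 and 57.8 CPM (KO), and the hypothalamus had 58.0 to 74.3 CPM (median 68.2). The striatal libraries lay below all others, and the motor cortex and hypothalamus overlapped. Over the 28 libraries *Sqle* varied most among the tested members, with a coefficient of variation of 39.6%, against 22.9% for *Dhcr7*, the steadiest.

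*Cyp51* (ENSMUSG00000001467, chr5:4081145-4104746, minus strand) encodes lanosterol 14-alpha-demethylase. It was at 27.5 to 34.6 CPM (median 30.6) in the dorsal striatum and at 22.8 to 33.0 CPM (median 28.8) in the ventral striatum. The motor cortex libraries had 49.2 CPM (WT), 47.1 and 41.4 CPM (heterozygous) and 35.8 and 40.8 CPM (KO), and the hypothalamus had 45.9 to 61.4 CPM (median 56.1). The striatum again lay below all libraries of the other regions, which overlapped with each other.

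*Msmo1* (ENSMUSG00000031604, chr8:64718139-64733792, minus strand) encodes the sterol-C4-methyl oxidase that acts after *Cyp51*. It was the member that separated the striatal regions most, at 28.0 to 46.7 CPM (median 34.6) in the dorsal striatum and 19.3 to 29.7 CPM (median 22.5) in the ventral striatum. In motor cortex it had 45.4 CPM (WT), 43.2 and 43.4 CPM (heterozygous) and 30.0 and 48.1 CPM (KO), and in the hypothalamus 45.7 to 60.9 CPM (median 52.4). The ventral striatum lay below all libraries of the motor cortex and hypothalamus, and its highest library overlapped the dorsal striatum. The dorsal striatum and motor cortex overlapped widely.

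*Dhcr7* (ENSMUSG00000058454, chr7:143823145-143848410, plus strand) encodes 7-dehydrocholesterol reductase, the last step of the Kandutsch-Russell branch to cholesterol. It had 19.3 to 24.4 CPM (median 21.3) in the dorsal striatum and 23.6 to 32.1 CPM (median 25.9) in the ventral striatum. The motor cortex libraries had 28.8 CPM (WT), 33.6 and 29.3 CPM (heterozygous) and 25.7 and 27.8 CPM (KO), and the hypothalamus had 35.2 to 42.2 CPM (median 37.7). The hypothalamus lay above every other library. *Dhcr7* was the only member with a higher mean in the ventral than in the dorsal striatum that passed the test.

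**Figure D1:**
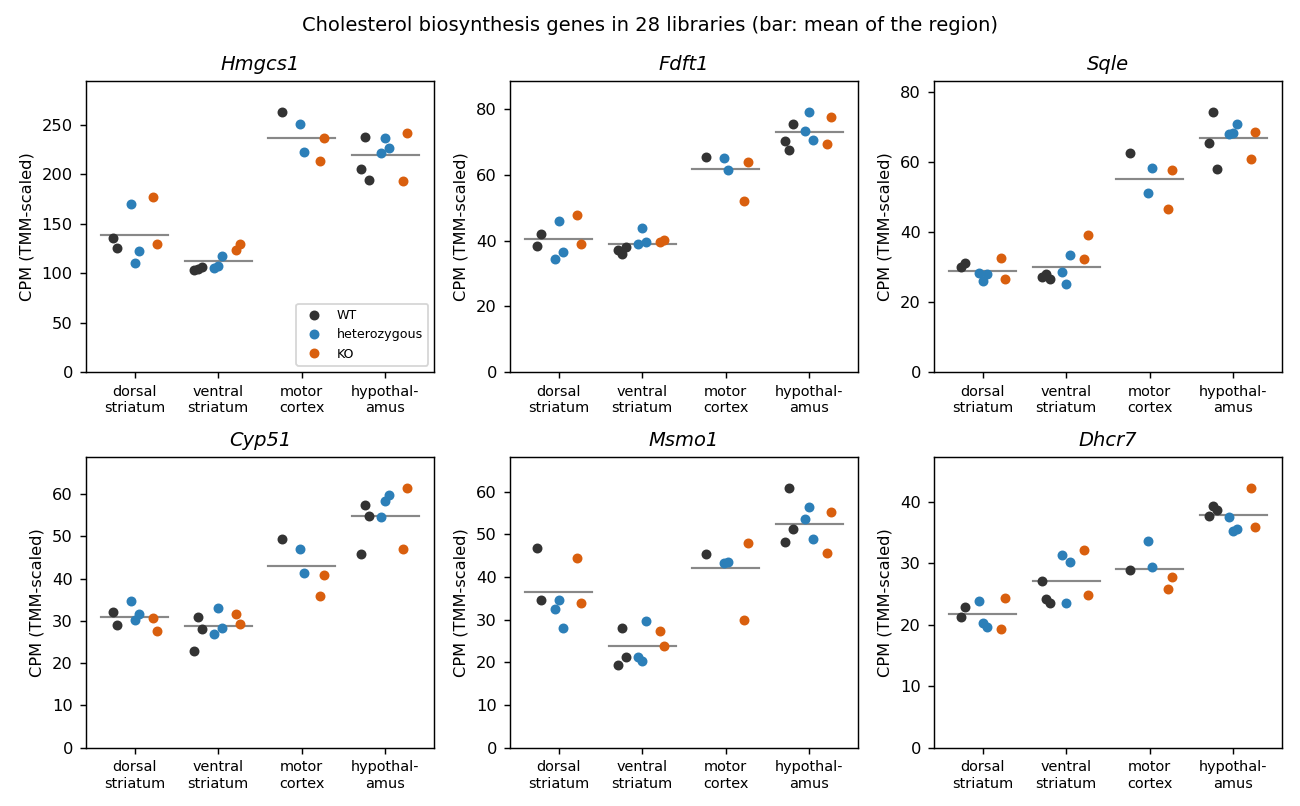
TMM-scaled CPM (vertical axis, from 0) of the 6 tested members in each of the 28 libraries, by region and coloured by genotype, with a grey bar at the mean of each region. The motor cortex and hypothalamus libraries sit above the striatal ones for *Hmgcs1*, *Fdft1*, *Sqle* and *Cyp51*, and *Msmo1* of the dorsal striatum reaches 46.7 CPM.

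The first question was whether the members differ between regions. For each pair of regions the mean of the 3 genotype means was compared with edgeR's likelihood ratio test over all 14979 genes, and a member counted as called when its p, adjusted by Benjamini-Hochberg, was under 0.05. The pairs share regions and so are not independent of each other. How many of all genes had libraries that did not overlap between regions was not counted, so the overlaps are given as description only. In bulk tissue, fewer cells of a type and less RNA per cell cannot be told apart.

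All 6 tested members were lower in the dorsal striatum than in the hypothalamus, and 56.1% of all genes were called in that pair. The differences in log2 level, dorsal striatum over hypothalamus, were -1.19 for *Sqle* (SE 0.086, adjusted p = 8.72e-43), -0.84 for *Cyp51* (SE 0.088), -0.84 for *Fdft1* (SE 0.077), -0.80 for *Dhcr7* (SE 0.090), -0.66 for *Hmgcs1* (SE 0.088) and -0.50 for *Msmo1* (SE 0.109, adjusted p = 1.52e-05). *Sqle* was thus 2.28-fold and *Msmo1* 1.42-fold higher in the hypothalamus. The median over the 6 members was -0.82, beside -0.045 over all genes tested. Libraries of the regions overlapped for *Msmo1* and for none of the other 5.

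In the ventral striatum as well, all 6 members were lower than in the hypothalamus, with 43.6% of all genes called. The log2 differences, ventral striatum over hypothalamus, ran from -1.13 for *Sqle* (SE 0.082, adjusted p = 4.02e-42) and -1.12 for *Msmo1* (SE 0.110, adjusted p = 4.08e-23) to -0.47 for *Dhcr7* (SE 0.082, adjusted p = 5.37e-08). The median was -0.94, beside -0.033 over all genes. The libraries of these regions did not overlap for any of the 6.

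Against the motor cortex, all 6 members had lower values in the dorsal striatum and 5 were called, beside 43.4% of all genes called. The largest log2 difference, dorsal striatum over motor cortex, was that of *Sqle* at -0.94 (SE 0.099, adjusted p = 1.53e-20), followed by *Hmgcs1* at -0.79 (SE 0.101), *Fdft1* at -0.61 (SE 0.090), *Cyp51* at -0.52 (SE 0.103) and *Dhcr7* at -0.41 (SE 0.108, adjusted p = 0.000534). These 5 genes showed no overlap between the libraries of the regions. *Msmo1* was not called (-0.20, 95% interval -0.45 to 0.052, adjusted p = 0.208). The median over the members was -0.56, beside 0.034 over all genes.

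The ventral striatum also had lower values than the motor cortex in all 6 members, with 5 called, beside 43.6% of all genes called. The member not called was a different one. *Dhcr7* was not called (log2 difference -0.085, 95% interval -0.29 to 0.12, adjusted p = 0.532), whereas *Msmo1* was (-0.82, SE 0.129, adjusted p = 1.14e-09). *Hmgcs1* showed the largest difference, at -1.09 (SE 0.099, adjusted p = 7.85e-28), which is 2.13-fold. The other values were -0.88 for *Sqle*, -0.67 for *Fdft1* and -0.59 for *Cyp51*, and the median over the members was -0.74, beside 0.040 over all genes.

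Between the striatal regions the members did not move one way. Of the 6, 2 were called higher and 1 lower in the dorsal striatum, with 29% of all genes called. *Msmo1* was higher in the dorsal striatum by 0.62 on the log2 scale (SE 0.117, adjusted p = 1.16e-06) and *Hmgcs1* by 0.30 (SE 0.090, adjusted p = 0.00453), and *Dhcr7* was lower, at -0.33 (SE 0.095, adjusted p = 0.00328). *Cyp51* (0.076), *Fdft1* (0.062) and *Sqle* (-0.060) were not called, and libraries of the regions overlapped for all 6 genes. The *Hmgcs1* call was lost without KO dorsal striatum 7 (0.22, adjusted p = 0.0732), the library with the highest *Hmgcs1* value of the region and with 329 summed CPM of cortical markers, and with scaling by library size alone (0.15, adjusted p = 0.252). The *Dhcr7* call was lost (-0.28, adjusted p = 0.198) when the KO libraries and those that stood apart were left out.

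Between motor cortex and hypothalamus the differences were smaller, and *Hmgcs1* was not called (log2 difference 0.14, motor cortex over hypothalamus, 95% interval -0.054 to 0.33, adjusted p = 0.249). The other 5 members were lower in the motor cortex, with 48.2% of all genes called. *Dhcr7* stood at -0.39 (SE 0.096, adjusted p = 0.000183) and *Cyp51* at -0.33 (SE 0.094, adjusted p = 0.00145), and both were called under each alternative tried (largest adjusted p 0.00568 and 0.0267). *Msmo1* at -0.30 (SE 0.122, adjusted p = 0.0306), *Sqle* at -0.24 (SE 0.088, adjusted p = 0.0147) and *Fdft1* at -0.23 (SE 0.082, adjusted p = 0.0123) had calls that depended on single libraries. The count of 5 became 2 without KO motor cortex 7, 3 without heterozygous motor cortex 5, KO hypothalamus 8, WT hypothalamus 2 or WT hypothalamus 3, and 4 without heterozygous motor cortex 6 or heterozygous hypothalamus 5, each left out alone. Without KO motor cortex 7, which had the lowest value of its region for all 6 members, the differences were -0.20 for *Msmo1* (adjusted p = 0.174), -0.19 for *Sqle* (adjusted p = 0.0838) and -0.18 for *Fdft1* (adjusted p = 0.0758).

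**Figure D2:**
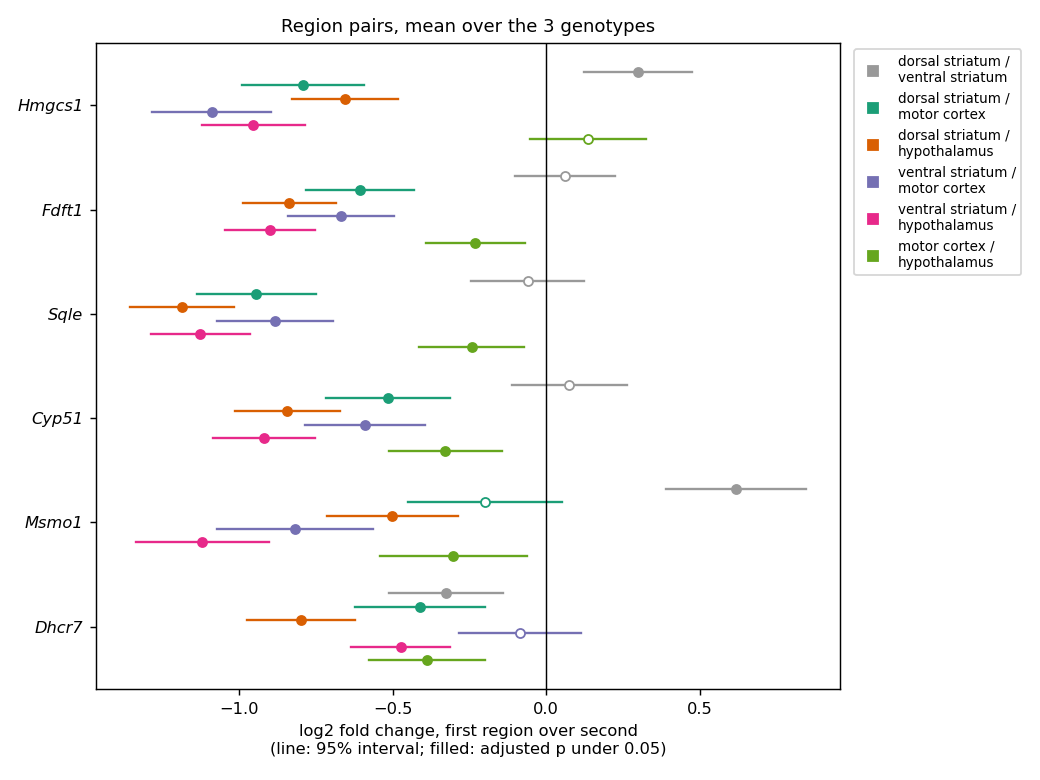
Log2 fold change of each tested member (horizontal axis) for the 6 region pairs, first region over second, with 95% intervals from edgeR, filled where the adjusted p was under 0.05. Every striatum-to-hypothalamus point lies left of 0, from -1.19 to -0.47, while the grey points for dorsal over ventral striatum lie on both sides of 0.

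The order of regions was also read within each genotype, as the sign of the difference between group means, 18 values for 6 genes and 3 genotypes. All 18 were lower in the dorsal striatum than in the hypothalamus (-1.33 to -0.36), and all 18 lower in the ventral striatum than in the hypothalamus (-1.27 to -0.34). Against the motor cortex, 17 of 18 were lower in the dorsal striatum and 17 of 18 in the ventral striatum. Between motor cortex and hypothalamus 15 of 18 were lower in the motor cortex, and between the striatal regions 11 of 18 were higher in the dorsal striatum. The step from striatum to hypothalamus was therefore seen in WT, heterozygous and KO libraries alike, and the smaller steps were not uniform.

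The remaining enzymes of the pathway were read from a list of 15, all of which were tested. All 15 had lower values in the dorsal striatum than in the hypothalamus, 11 of them called (median -0.51, with 56.1% of all genes called), and all 15 in the ventral striatum, 14 of them called (median -0.64, with 43.6% of all genes called). *Pmvk*, a mevalonate pathway kinase, was at 8.98 CPM in the dorsal striatum and 18.4 CPM in the hypothalamus (log2 difference -1.03, SE 0.141, adjusted p = 6.21e-13). The desaturase *Sc5d* was at 31.0 and 51.6 CPM (-0.74, SE 0.078, adjusted p = 5.00e-21), and *Nsdhl*, a sterol dehydrogenase that acts with *Msmo1*, at 17.3 and 29.0 CPM (-0.74, SE 0.090, adjusted p = 4.50e-16).

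Against the motor cortex, 13 of the 15 enzymes had lower values in the dorsal striatum and 2 higher. Of these, 9 were called lower and none higher, beside 43.4% of all genes called. In the ventral striatum 14 had lower values and 1 higher, again with 9 called lower and none higher, beside 43.6% of all genes called. Between motor cortex and hypothalamus 2 were called higher (*Hsd17b7* among them) and 3 called lower (*Acat2*, *Pmvk* and *Lbr*) in the motor cortex, a smaller share than the 48.2% of all genes called. Between the striatal regions 8 had higher and 7 lower values in the dorsal striatum, and 2 of the 15 were called, both higher, among them the lanosterol synthase *Lss* (0.26, adjusted p = 0.0342), beside 29% of all genes called.

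**Figure D3:**
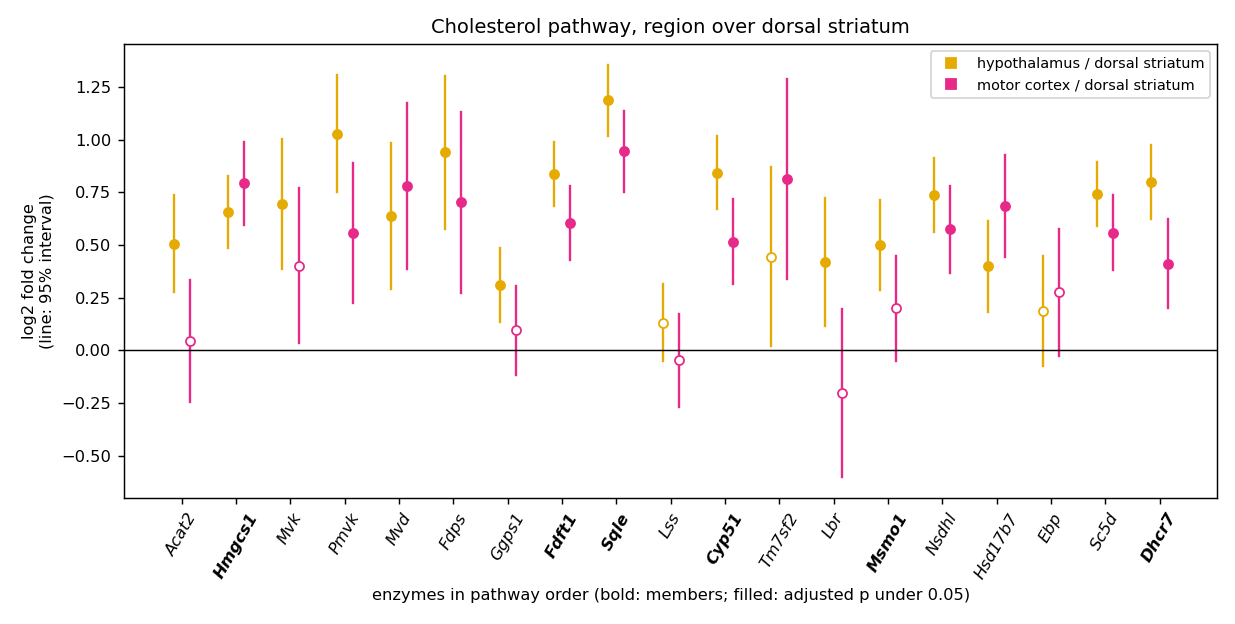
Log2 fold change of the 6 tested members (bold) and other pathway enzymes in the hypothalamus and in the motor cortex, each over the dorsal striatum, in pathway order, with 95% intervals from edgeR and filled points where the adjusted p was under 0.05. Signs are the reverse of those in the text, so the *Sqle* point in the hypothalamus is the highest of those plotted, and *Lbr* and *Lss* alone lie under 0, both in the motor cortex.

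Genes that sense sterols did not follow the enzymes as a group. Of 7, 4 had higher and 3 lower values in the dorsal striatum than in the hypothalamus, and 3 were called higher and 2 called lower, beside 56.1% of all genes called. *Insig1*, itself a target of SREBP-2, was lower in the dorsal striatum (26.4 against 49.4 CPM, log2 difference -0.91, adjusted p = 1.53e-16), whereas *Srebf2* was slightly higher (209 against 184 CPM, 0.19, adjusted p = 0.00346). *Mbtps1*, which encodes the site-1 protease that cuts SREBPs, was higher as well (74.6 against 35.8 CPM, 1.06, adjusted p = 9.36e-38).

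Among 14 genes of uptake, transport and breakdown, 6 had higher and 8 lower values in the dorsal striatum than in the hypothalamus, and 3 were called higher and 6 called lower. That is close to the 56.1% of all genes called in this pair. The sterol carrier *Stard4* moved with the members (13.9 against 22.4 CPM, -0.69, adjusted p = 9.65e-06), as did the lipoprotein receptor *Lrp8* (27.4 against 44.5 CPM, -0.70, adjusted p = 1.41e-15). *Cyp46a1*, the neuronal 24-hydroxylase through which the brain disposes of cholesterol, moved the other way (173.5 against 64.3 CPM, 1.43, adjusted p = 5.76e-57). Of 9 genes of fatty acid synthesis, 8 were called lower and 1 called higher (*Acly*) in the dorsal striatum, with *Fads2* at -1.09 (adjusted p = 5.50e-30) and *Scd1* at -1.06 (adjusted p = 2.69e-23).

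Cell type markers were set beside the members. The summed CPM of 12 oligodendrocyte and myelin genes was lowest in the motor cortex (954 to 1655), and it was 1931 to 3772 in the dorsal striatum, 2410 to 3441 in the ventral striatum and 2191 to 3782 in the hypothalamus. The members were high in the motor cortex, where the myelin genes were low, so the 2 orders of regions differ. All 12 myelin genes were called in dorsal striatum against motor cortex, each higher in the former (median 0.89), beside 43.4% of all genes called. In the same comparison 5 members were called lower. Between dorsal striatum and hypothalamus 1 of the 12 was called, with a median of -0.037, beside 56.1% of all genes called.

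Mean log2 CPM of 8 astrocyte markers was highest in the hypothalamus (7.29, SD 0.095) and 6.66 to 6.90 in the other regions, while their summed CPM was lowest there (3974 to 5133) and highest in the motor cortex (7217 to 8144). That of 6 pan-neuronal markers was highest in the motor cortex (9.36, SD 0.067), followed by the hypothalamus (8.61), the dorsal striatum (8.24) and the ventral striatum (8.15). Microglial markers (6 genes) summed to 180 to 232 CPM in the ventral striatum and 90.5 to 115 CPM in the hypothalamus, and endothelial markers (5 genes) to 95.1 to 156 CPM over all regions. Mean log2 CPM of the 6 members was 6.13 (SD 0.074) in the hypothalamus and 5.89 (SD 0.147) in the motor cortex. It was 5.32 (SD 0.096) in the dorsal striatum and 5.21 (SD 0.109) in the ventral striatum. None of the myelin, astrocyte and pan-neuronal lists had the same order of regions. By mean log2 CPM, the pan-neuronal order differed from that of the members only in having the motor cortex above the hypothalamus. The 6 pan-neuronal genes went both ways, with 2 higher and 4 lower in the dorsal striatum than in the hypothalamus (-2.10 to 1.23). Of these, 1 was called higher and 3 called lower, beside 56.1% of all genes called. Their summed CPM overlapped between these regions (2716 to 3386 and 2952 to 4119). The part of the marker lists in the result was not tested.

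**Figure D4:**
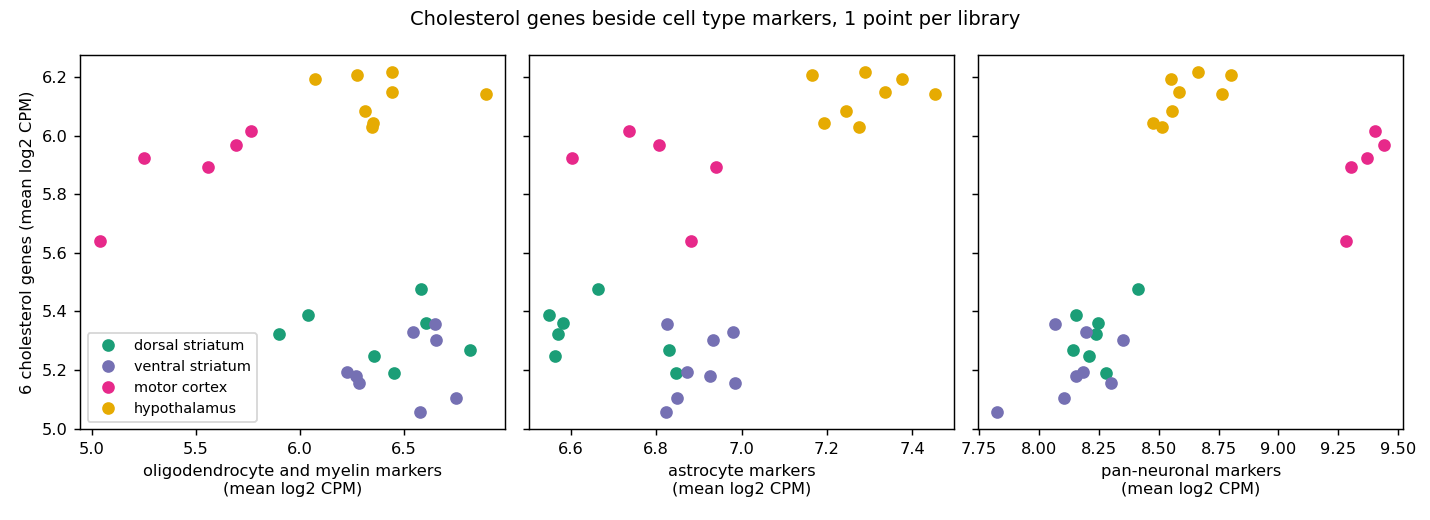
Mean log2 CPM of the 6 tested members (vertical axis) against that of oligodendrocyte and myelin, astrocyte and pan-neuronal markers (horizontal axes), 1 point per library, coloured by region. Motor cortex libraries have high member levels (5.64 to 6.02) at the lowest myelin marker levels, and dorsal and ventral striatum overlap on the member axis.

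The members were then compared with each other and with all other genes over the 28 libraries, as a description, since the points share libraries, depth and the 4 regions. Pearson's r between the log2 CPM of 2 members was 0.52 to 0.94 (median 0.84) over the 15 pairs. After the mean of each genotype and region was subtracted it was -0.40 to 0.56 (median 0.12), so most of the likeness lay between regions. Among 10604 genes with a mean log2 CPM of at least 2, the genes most like the mean of the 6 tested members included *Ap2a2* (r = 0.945), *Tubb5* and *Rora* (both 0.941), *Nt5dc3* (0.940), *Pcsk1* (0.939), *Nmnat2* (0.934), *Acsl4* (0.933), *Insig1* (0.932) and *Ptpn3* (0.932). *Insig1* thus ranked 9 of 10604. Among the closest of the other pathway enzymes were *Nsdhl* at rank 14, *Sc5d* at rank 18 and *Fdps* at rank 42, and the least alike was *Lbr* at rank 3163. With group means subtracted, the closest genes included *Ky* (0.761), *Nol10* (0.748), *Xntrpc* (0.732), *Rabggtb* (0.715), *Purb* (0.705), *Msl1* (0.702), *Arl8a* (0.699), *Fbf1* (0.691) and *Ikzf2* (0.676), with none of the pathway among them.

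The second question was whether loss of *Hdc* alters the members, since myelin genes were the subject of the study and myelin is rich in cholesterol. In the dorsal striatum none of the 6 members was called between KO and WT by edgeR's likelihood ratio test (0.387% of all genes called), and none had an unadjusted p under 0.05. *Hmgcs1* had 136.0 and 126 CPM in the WT libraries, 170, 110.5 and 122 CPM in the heterozygous ones and 177 and 129.0 CPM in those labelled KO. The groups overlapped, and the log2 difference of KO over WT was 0.23 (95% interval -0.10 to 0.56, adjusted p = 0.796). The other 5 members lay between -0.063 (*Cyp51*) and 0.11 (*Fdft1*), and the 6 intervals reached from -0.46 to 0.56. KO dorsal striatum 7, with its cortical markers, had the highest *Hmgcs1*, *Fdft1* and *Sqle* values of the region. It also had the lowest *Dhcr7* value (19.3 CPM), and its *Cyp51* value was the median of the region (30.6 CPM). The *Hmgcs1* difference was -0.02 without KO 7 and 0.44 without KO 8. The median over the members was -0.036 with both KO libraries, -0.10 without KO 7 and 0.11 without KO 8.

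The myelin markers were set beside the members in that comparison. Their summed CPM was 2163 and 1931 in WT, 2760 to 2918 in heterozygous and 2939 and 3772 in KO dorsal striatum, with no overlap between WT and the others. Of the 12, 4 were called higher in KO than in WT (*Mobp*, *Cnp*, *Cldn11* and *Trf*), beside 0.387% of all genes called. The median over the 12 was 0.74, against -0.036 for the 6 members and 0.20 for the 15 other pathway enzymes. The higher KO sum was that of KO 8, which had 2840 summed CPM of choroid plexus genes, and 5 of the 6 choroid plexus genes tested were called higher in the same comparison. KO 7 and WT 2 had the raised cortical markers given above. All 12 myelin genes had higher values in KO without any 1 of the KO or WT libraries (medians 0.61 to 0.89), but none was called without KO 8, WT 1 or WT 2, and 6 were called without KO 7. A test of the difference between the lists was not made, and the part of the other tissues in it was not tested. Of the 15 other pathway enzymes 9 had higher and 6 lower values in KO. None of the 15 was called, and *Nsdhl* alone had an unadjusted p under 0.05 (0.38, adjusted p = 0.628).

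In the ventral striatum all 6 members had higher means in KO than in WT, and none was called (0.0801% of all genes called). *Sqle* had 27.1, 28.0 and 26.7 CPM in WT, 28.6, 25.1 and 33.5 CPM in heterozygous and 32.4 and 39.2 CPM in the libraries labelled KO. WT and KO did not overlap, and the log2 difference was 0.39 (SE 0.161, unadjusted p = 0.0153, adjusted p = 0.787 by edgeR), the only member value of the 12 genotype comparisons with an unadjusted p under 0.05. This difference was 0.52 without KO 7 and 0.25 without KO 8. *Hmgcs1* had 103, 104 and 106 CPM in WT and 123 and 129 CPM in KO, again without overlap (0.28, 95% interval -0.033 to 0.58, adjusted p = 0.942). *Fdft1* had 36.1 to 38.0 CPM in WT and 39.4 and 40.2 CPM in KO (0.10, adjusted p = 0.959). The median over the members was 0.18, beside 0.012 over all genes. Among the marker lists it was 0.13 for myelin, 0.17 for pan-neuronal, 0.18 for endothelial and 0.077 for astrocyte genes. It was 0.35 for cortical excitatory and for hypothalamic genes, -0.12 for spiny neuron, -0.073 for microglial and -0.21 for choroid plexus genes. Summed CPM of the spiny neuron genes was 2450 in KO 7, 1043 in KO 8 and 1187 to 2157 in WT. The median over the members was 0.11 without KO 7, with 5 of the 6 members higher in KO. Without KO 8 it was 0.24, with all 6 higher. The part of these markers in the result was not tested. Of the 15 other pathway enzymes 14 had higher and 1 lower values in KO, and all 9 fatty acid synthesis genes had higher values, none called. Without KO 7, 13 of the 15 and all 9 had higher values, and without KO 8, 10 of the 15 and 5 of the 9. How many of all genes were without overlap between WT and KO was not counted.

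In the motor cortex the members had lower means in KO than in WT in all 6 cases, none called (0.0334% of all genes called), and there was 1 WT library, so the WT side had no replicate check. The intervals and p-values of this region assume that this library varies like those of the other groups, from which the fit takes its spread. *Cyp51* had 49.2 CPM in WT, 47.1 and 41.4 CPM in heterozygous and 35.8 and 40.8 CPM in KO (-0.37, 95% interval -0.75 to 0.022, adjusted p = 1). The median over the members was -0.23, beside 0.001 over all genes. KO motor cortex 7 was the lowest library of the region for all 6 members, and without it the median was -0.084 and *Msmo1* was higher in KO than in WT (0.083, adjusted p = 1). Without KO motor cortex 8 the median was -0.37, with none called. Myelin markers were also lower in KO, at a summed CPM of 954 and 1159 against 1653 in WT and 1655 and 1411 in heterozygous (median -0.64, none called). Their part in the result was not tested.

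In the hypothalamus, the region with the highest *Hdc* count in WT, the members were nearly level between KO and WT, with log2 differences of -0.084 (*Msmo1*) to 0.047 (*Fdft1*), intervals from -0.44 to 0.33 and none called (0.167% of all genes called). *Sqle* had 65.4, 74.3 and 58.0 CPM in WT, 68.1, 68.3 and 71.1 CPM in heterozygous and 60.9 and 68.7 CPM in KO. The groups overlapped for all 6 members. The median over the members was 0.025 with both KO libraries. Without KO 7 it was 0.056, with 5 of the 6 members higher in KO. Without KO 8, the library with 340 summed CPM of cortical markers, it was -0.13, with 5 of the 6 lower in KO. The part of these markers in the result was not tested.

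Between heterozygous and WT libraries no member was called in the dorsal striatum (0.0868% of all genes called), ventral striatum (0.0534%), motor cortex (0.0134%) or hypothalamus (0.0935%), and none had an unadjusted p under 0.05. The largest value was that of *Msmo1* in the dorsal striatum, with 46.7 and 34.7 CPM in WT against 32.6, 34.6 and 28.0 CPM in heterozygous libraries (-0.35, 95% interval -0.73 to 0.036, adjusted p = 0.686). Between KO and heterozygous libraries likewise none was called, with 0.00668% of all genes called in the motor cortex, 0.0467% in the ventral striatum, 0.234% in the hypothalamus and 0.454% in the dorsal striatum. These comparisons share their WT or KO libraries with the ones above.

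**Figure D5:**
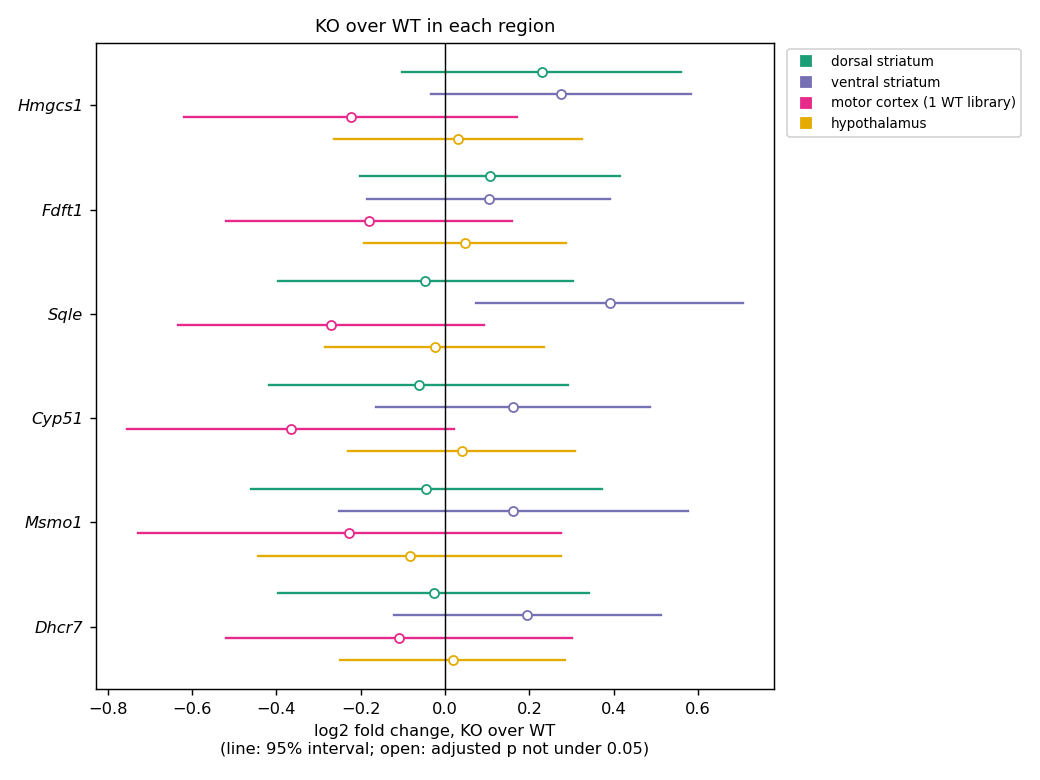
Log2 fold change of KO over WT (horizontal axis) for the 6 tested members in each region, with 95% intervals from edgeR, all points open because none had an adjusted p under 0.05. Ventral striatum points lie between 0.10 and 0.39 and motor cortex points between -0.37 and -0.11, and 23 of the 24 intervals include 0.

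Whether the KO effect differs between regions was tested directly as an interaction, for each of the 6 region pairs. The pairs without the dorsal striatum were added after the values above were seen. No member was called for the dorsal striatum minus the ventral striatum (0.00668% of all genes called), minus the hypothalamus (0.154%) or minus the motor cortex (0.127%), and none had an unadjusted p under 0.05. The value nearest to it was that of *Sqle* for dorsal minus ventral striatum (-0.44, 95% interval -0.91 to 0.033, adjusted p = 1).

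For the ventral striatum minus the motor cortex, the pair in which the KO means of the members lay on opposite sides of WT, no member was called either. By edgeR's likelihood ratio test 0% of all genes were called there, and 663 of the 14979 genes had an unadjusted p under 0.05. *Sqle* differed by 0.66 (95% interval 0.18 to 1.14, adjusted p = 0.91), and *Cyp51* (0.53) and *Hmgcs1* (0.50) also had unadjusted p under 0.05 (both adjusted p = 1). For the ventral striatum minus the hypothalamus (0.1% of all genes called) *Sqle* alone had an unadjusted p under 0.05 (0.41, adjusted p = 1), and for the motor cortex minus the hypothalamus (0.0134%) no member had. Each interaction with the motor cortex rests on its single WT library. The quasi-likelihood test of edgeR and DESeq2 also called no member in any genotype comparison or interaction.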

How the data were processed

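RNA was extracted from 4 dissected brain regions and sequenced as single-end reads. Per the labels and the study's methods, the authors trimmed reads with Trimmomatic 0.32, removed rRNA reads with Bowtie2 2.2.3, aligned the rest to GRCm38 (Ensembl annotation 75) with STAR 2.3.1z8 and counted unique reads on exons with HTSeq 0.6.1p1 in union mode. They deposited raw counts per gene and library, with no normalization or filter. Reads not assigned to genes were 45.8% to 55.2% of those tallied and were left out of library sizes. Whether counting used strand is not given in the sources used here.

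Symbols, positions and exon lengths came from GENCODE M21. Genes above 1 CPM in at least 2 of 28 libraries (14979) were tested with edgeR 4.0.16 (glmFit and glmLRT, as in the study) in R 4.3.3, with TMM scaling, 12 group means and Benjamini-Hochberg adjustment. Standard errors are Wald errors of the fit. Log2 CPM used a prior count of 2. Quasi-likelihood and DESeq2 1.42.0 tests, other scalings, no filter, a replicate block and single libraries left out were alternatives. The block was a fixed effect of library number in edgeR for region pairs and interactions. For genotype comparisons it was a random effect in limma 3.58.1. Scripts were tested on simulated data. Members, lists and tests were chosen with earlier results of these data known. Named genes are the members, the fixed lists, *Hdc* and the 10 genes most like the members' mean, taken over the 6 members tested. A few listed or top-ranking genes are not reported here.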

Additional observations from a re-analysis of the deposited data

Results flagged for a closer look

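In 24 groups of 1 member and 1 region, 1 library lay farther from its neighbours than the 95% limit of Dixon's test allows, and chance alone marks about 1 group in 20. It was KO motor cortex 7 for *Msmo1*, at 30.0 CPM, with the next library of the region at 43.2 CPM. The same library had the lowest mean log2 CPM of the 6 tested members in the motor cortex (5.64), the lowest summed CPM of the 12 myelin markers (954) and the lowest summed CPM of the 5 cortical excitatory neuron markers (1696). The part of these in the *Msmo1* value was not tested.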

How the results depend on the processing

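Of 30 member differences called between regions, none reversed under any alternative. The only count of called members that moved by over 1.5 times was that of motor cortex against hypothalamus, which was 5 and became 3 with DESeq2, 2 without the libraries that stood apart on cortical or choroid plexus markers (an alternative chosen after seeing the data), and 2 to 5 with 1 library left out at a time. Scaling by library size alone moved the median log2 difference of all genes from -0.045 to -0.41 for dorsal striatum over hypothalamus and from -0.004 to 0.28 for KO over WT in the dorsal striatum. With it, 6 members were called lower in the dorsal striatum than in the motor cortex, *Msmo1* included, and 0 in any genotype comparison. The labels do not say whether a library number marks 1 mouse across regions, and the correlation of deviations was -0.080 to 0.086 over 34 pairs of libraries with the same number, so no shared deviation was seen. With the replicate block the counts of called members were 3 for dorsal against ventral striatum, 5 for motor cortex against hypothalamus and 0 in every genotype comparison, and no call changed. Removing the libraries that stood apart leaves no KO dorsal striatum library, so KO comparisons there have no value under it, and region pairs with the dorsal striatum were then taken over WT and heterozygous means. The single WT motor cortex library could not be left out of the fit. With 2 or 3 libraries a group, the 95% intervals of KO over WT differences run from -0.46 to 0.56 in the dorsal striatum, which is the precision that this depth and number of libraries gave.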
